A study of Mus musculus with 12 samples.

Results

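The Clec4 cluster is a group of neighbouring mouse genes that encode C-type lectin receptors of myeloid cells, among them Dectin-2 (Clec4n), Mincle (Clec4e) and MCL (Clec4d). The members were chosen by name from the gene symbols paired with the count table: Clec4a1, Clec4a2, Clec4a3, Clec4b1, Clec4d, Clec4e and Clec4n, 7 of 37991 genes. All 7 passed the filter on low counts, which 18981 genes passed. RNA was sequenced from bone marrow-derived dendritic cells (BMDCs), which are grown from mouse marrow progenitors, all of them labelled C57BL/6. The groups were Vav1/2/3-/- (KO) cells given curdlan, KO cells left unstimulated, wild-type (WT) cells given curdlan, and WT cells left unstimulated, with 3 libraries each. Curdlan is an insoluble beta-glucan and a ligand of Dectin-1. It was given for 3 hours at a labelled concentration of 200 mg/ml, a unit that could not be checked. Ages of the mice and whether libraries of a group came from separate animals or cultures were not given in the sources used here, so p-values measure the spread between these libraries, which may be technical.

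Receptors of this family bind sugars and glycolipids of fungi, mycobacteria and damaged cells. Dectin-2, Mincle, MCL and the Clec4b1 product DCAR signal by pairing with the Fc receptor gamma chain, whose ITAM motif recruits the kinase Syk and, through Card9, Bcl10 and Malt1, leads to NF-kB activation. The Clec4a2 product, DCIR, instead carries an inhibitory ITIM motif in its own tail, which recruits phosphatases.

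Library totals ran from 41421718 to 61217861 counts, and the first principal component, with 67% of the variance, separated the genotype labels. The targeted genes did not check the label, and no library labelled KO lacked a Vav transcript. Vav2 averaged 287 CPM in curdlan-treated and 282 CPM in unstimulated libraries labelled KO, against 69.3 and 67.3 CPM in the same states of WT. Vav1 averaged 276 and 212 CPM in those states of KO, against 178 and 133 CPM in WT. Vav3 averaged 28.5 and 36.6 CPM in KO, against 32.6 and 26.3 CPM in WT. CPM (counts per 1e6 counts) uses the library's total after TMM scaling. KO and WT below therefore name the labels, and every direction between genotypes rests on them. Each group also had a sequencing lane of its own, and lane and group cannot be told apart. All 10 dendritic cell markers were detected, with a summed level of 17200 to 22315 CPM in curdlan-treated and 15969 to 20315 CPM in unstimulated libraries labelled KO, and of 9531 to 9993 CPM and 9654 to 9860 CPM in those states of WT. Cd74 and H2-Aa, genes of antigen presentation, made up most of that sum in KO (Cd74 averaged 11631 CPM in KO and 5938 CPM in WT with curdlan). Of all genes tested by the test given below, 51.4% passed between genotypes with curdlan and 44.4% without it. Of the 10 dendritic cell markers, 6 were higher and 3 lower in KO with curdlan, and 6 higher and 2 lower without it. Those lower were Itgax, the CD11c gene (945 CPM in KO and 1336 CPM in WT with curdlan), and Ccr7, the homing receptor gene (109 CPM in KO and 278 CPM in WT), in both states, and, with curdlan, the transcription factor gene Zbtb46 (47.1 CPM in KO and 71.3 CPM in WT).

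The 7 genes lie within 368 kb of chromosome 6 (GRCm38 coordinates 122921848 to 123289870, GENCODE M21), in the order Clec4a1, Clec4a3, Clec4b1, Clec4a2, Clec4n, Clec4d and Clec4e. Clec4a4 lies between Clec4a3 and Clec4b1, and Clec4b2 between Clec4a2 and Clec4n, so that the interval holds 9 protein-coding genes. Clec4e (123281789 to 123289870) is on the minus strand and the other members are on the plus strand. Coding sequences of the members were 57.4% identical in the pair Clec4a2 and Clec4e and 82.7% identical in the pair Clec4a2 and Clec4b1, the ends of the range over their aligned bases. Of the 50-base words in each gene's exons, 8.68% of those of Clec4b1 and 6.15% of those of Clec4a2 occurred in another gene of the cluster, against 0 for the other 5 members. How the authors' counting placed reads from such stretches was not given in the sources used here, so counts of Clec4b1 and Clec4a2 are uncertain to that extent.

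Promoter sequences were available for 6 of the 7 members from RefSeq (GRCm38.p6), covering 250 bases before to 50 bases after the start site; that of Clec4n is not shown. The 4 below are those of the genes with the largest differences between groups: Clec4e (chr6:123289822-123290121, minus strand), Clec4d (chr6:123261857-123262156, plus strand), Clec4b1 (chr6:123049712-123050011, plus strand) and Clec4a1 (chr6:122921598-122921897, plus strand). Capitals mark matches to letters searched on both strands: GAGGAA (the core bound by the myeloid ETS factor PU.1), TTGCNNAA (C/EBP), TGANTCA (AP-1), TATAAA (the TATA box) and a 10-base NF-kB motif.
Clec4e: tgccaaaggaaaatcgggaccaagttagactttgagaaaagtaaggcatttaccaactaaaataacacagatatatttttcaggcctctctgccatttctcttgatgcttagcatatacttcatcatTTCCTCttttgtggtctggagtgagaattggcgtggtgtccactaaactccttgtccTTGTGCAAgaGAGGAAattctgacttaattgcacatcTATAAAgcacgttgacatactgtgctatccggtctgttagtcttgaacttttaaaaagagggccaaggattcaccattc
Clec4d: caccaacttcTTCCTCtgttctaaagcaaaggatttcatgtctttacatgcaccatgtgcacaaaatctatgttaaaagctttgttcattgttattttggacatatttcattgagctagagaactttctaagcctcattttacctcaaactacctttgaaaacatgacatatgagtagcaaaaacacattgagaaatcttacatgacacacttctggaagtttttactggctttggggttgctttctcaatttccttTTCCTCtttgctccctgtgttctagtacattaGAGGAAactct
Clec4b1: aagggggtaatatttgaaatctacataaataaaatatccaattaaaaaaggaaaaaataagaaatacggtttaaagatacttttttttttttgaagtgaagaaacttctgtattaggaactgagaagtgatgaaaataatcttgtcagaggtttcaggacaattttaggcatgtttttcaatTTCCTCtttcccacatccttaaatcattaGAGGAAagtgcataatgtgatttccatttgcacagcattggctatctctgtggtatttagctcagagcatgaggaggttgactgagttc
Clec4a1: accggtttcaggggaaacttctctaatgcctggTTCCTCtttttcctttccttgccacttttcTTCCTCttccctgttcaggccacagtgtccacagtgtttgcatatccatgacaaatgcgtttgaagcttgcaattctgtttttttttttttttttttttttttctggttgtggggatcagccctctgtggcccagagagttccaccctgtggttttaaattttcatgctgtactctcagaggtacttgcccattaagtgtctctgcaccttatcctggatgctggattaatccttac
The Clec4e window held TATAAA at position -29, GAGGAA at -56 and -123, and TTGCNNAA at -66, each counted from the start site to the first base of the match. The C/EBP letters occurred in 10.8% of all 32851 promoter windows of this length, GAGGAA in 28.3%, TATAAA in 13.6%, TGANTCA in 7.81% and the NF-kB motif in 8.46%. GAGGAA also stood in the windows of Clec4d, Clec4b1 and Clec4a1. None of these 4 windows held the AP-1 letters or the NF-kB motif. Of the 4, only that of Clec4e held the C/EBP letters and TATAAA. Among the windows not shown, that of Clec4a2 held TATAAA at -161 and the AP-1 letters at 32. A match describes the letters in the window and not a bound site.

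Dectin-2 and Mincle transcripts made up most of the cluster's RNA in every group. Per kilobase of exon, which allows levels to be compared between genes, Clec4n stood at 1657 ± 102 CPM per kb in curdlan-treated KO cells, 1181 ± 98 in unstimulated KO cells, 1288 ± 10.4 in curdlan-treated WT cells and 1177 ± 65 in unstimulated WT cells (SD, n = 3 libraries per group, here and below). Among 13887 genes ranked per kb it held places 29 to 34 in the 4 groups. Clec4e followed at 748 ± 14, 609 ± 31, 459 ± 28 and 201 ± 21 CPM per kb in the same order of groups. Clec4d was next, at 211 ± 35, 138 ± 18, 102 ± 4.2 and 75.2 ± 3.4 CPM per kb. The other 4 members lay between 4.39 CPM per kb, the mean of Clec4a1 in curdlan-treated WT cells, and 47.0 CPM per kb, that of Clec4a2 in unstimulated WT cells. In KO cells with curdlan their order was Clec4a2 (46.1 ± 2.7 CPM per kb), Clec4a3 (36.9 ± 8.8), Clec4a1 (33.6 ± 4.6) and Clec4b1 (26.3 ± 2), and the middle 2 lay within each other's SD. In unstimulated WT cells it was Clec4a2 (47.0 ± 1.5 CPM per kb), Clec4b1 (37.7 ± 1.6), Clec4a3 (26.6 ± 1.5) and Clec4a1 (4.77 ± 0.42), with no overlap of these ranges.

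**Figure D1:**
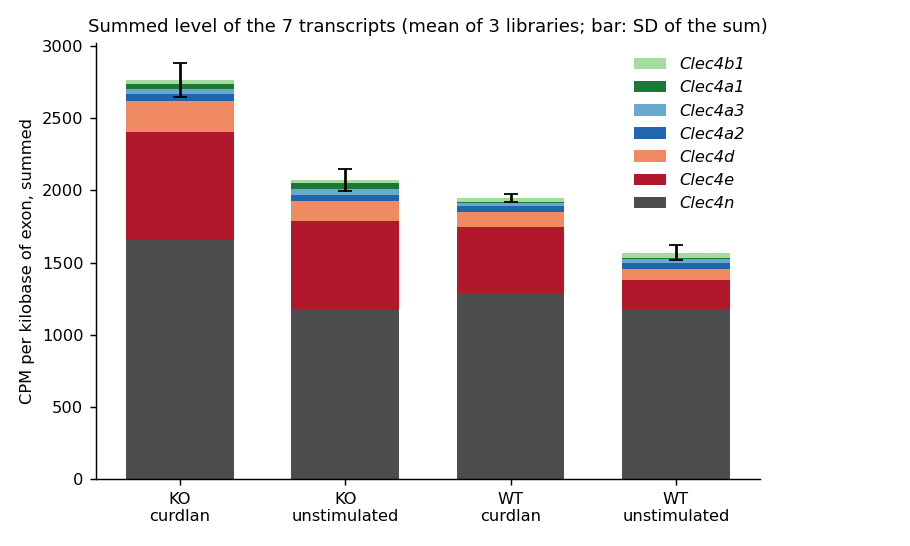
Stacked mean CPM per kilobase of exon (y axis, from 0) of the 7 transcripts in KO and WT cells with curdlan or unstimulated (x axis); black bars are the SD of the sum over 3 libraries. The sum was 2759 ± 117 in KO cells with curdlan, 2069 ± 76 in unstimulated KO cells, 1947 ± 27 in WT cells with curdlan and 1569 ± 49 in unstimulated WT cells, and the Clec4e layer is shortest in unstimulated WT cells.

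The make-up of this sum differed between groups. Clec4e was 27.1% ± 0.91 of it in KO cells with curdlan and 29.5% ± 2.2 in unstimulated KO cells, against 23.6% ± 1.2 in WT cells with curdlan and 12.8% ± 1.6 in unstimulated WT cells. Clec4n held 60% ± 1.2 and 57% ± 2.8 in those KO groups, and 66.2% ± 1.2 and 75% ± 1.9 in the WT groups. For each Dectin-2 transcript, measured per kb, there were 0.452 ± 0.023 Mincle transcripts in KO cells with curdlan, 0.519 ± 0.064 in unstimulated KO cells, 0.356 ± 0.024 in WT cells with curdlan and 0.172 ± 0.026 in unstimulated WT cells. The unstimulated WT libraries, between 0.145 and 0.196, did not overlap with any other group in this ratio. The size of these values depends on the exon length used: Clec4e has 2.518 kb of exon in protein-coding transcripts and 4.965 kb over all its transcripts, against 1.242 and 1.42 kb for Clec4n. By the length over all transcripts, an alternative chosen after seeing the data, the ratio was 1.72 times smaller in every group, at 0.262 and 0.301 in KO cells with curdlan and without it, and 0.207 and 0.0995 in those states of WT. The Clec4e share was then 17.7% and 19.4% in KO and 15.1% and 7.8% in WT, and the order of the groups was the same.

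**Figure D2:**
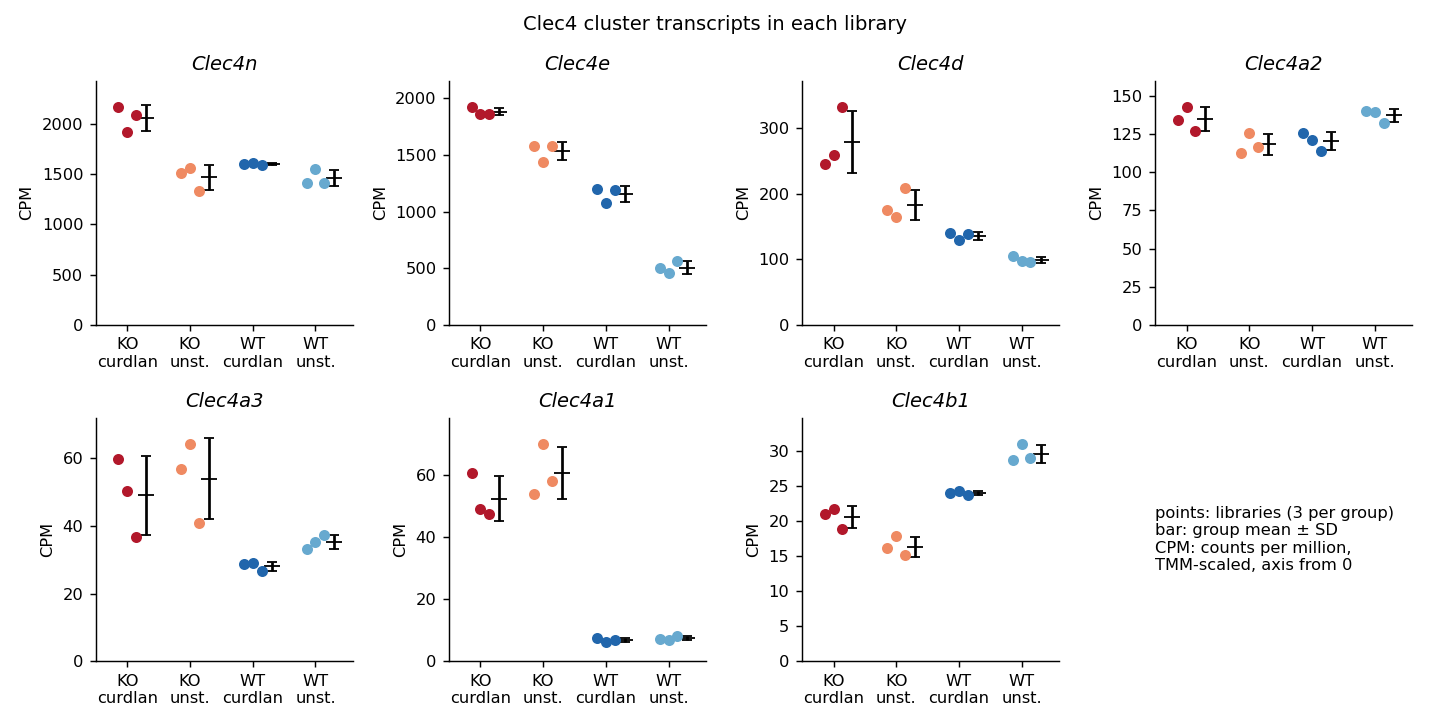
CPM (y axis, from 0) of each transcript in each library, for KO and WT cells with curdlan or unstimulated (x axis); points are libraries and black bars are group means ± SD. Clec4e libraries of the 4 groups do not overlap, and Clec4a1 lies between 47.3 and 70.0 CPM in all 6 KO libraries and between 6.22 and 8.14 CPM in all 6 WT libraries.

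Curdlan raised 4 of the 7 transcripts in KO cells, Clec4d, Clec4n, Clec4b1 and Clec4e. None passed as lower there in the TMM-scaled fit of all 12 libraries without a replicate block. In WT cells it raised 2, Clec4e and Clec4d, and lowered Clec4b1. Changes were tested with edgeR's quasi-likelihood test on the whole table, and a Benjamini-Hochberg adjusted p under 0.05 was taken as past the threshold. Over all genes tested, 28.6% passed in KO (14% higher, 14.6% lower) and 19.8% passed in WT (11.4% higher, 8.4% lower). The median log2 fold change of the 7 was 0.30 in KO and -0.12 in WT, beside -0.00084 and -0.034 over all genes tested. With replicate number as a block, which assumes that the numbers pair the states within a genotype, 5 members passed in WT. The added ones were Clec4a2 and Clec4a3, both lower. In KO, where the states share numbers 2 and 5, the block also took the count to 5, the added one being Clec4a1, lower (-0.25, adjusted p = 0.0214). The KO changes with the block rest on numbers 2 and 5 alone. The block left 3 residual degrees of freedom, against 8 without it. Scaling by library size only, which took the median of all genes to -0.199 in KO and -0.167 in WT, left 2 higher and 1 lower in KO and 1 higher and 2 lower in WT.

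The difference of the responses, KO minus WT, passed for 3 members. It was higher in KO for Clec4b1 and Clec4a2 and lower for Clec4e. The calls of Clec4b1 and Clec4e held under all 19 alternatives, whereas that of Clec4a2 was lost under 13 of 19 (adjusted p up to 0.151). Over all genes tested this difference passed for 5.21% (1.61% higher in KO, 3.6% lower).

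Between genotypes, unstimulated KO cells held more Clec4a1, Clec4e, Clec4d and Clec4a3 than WT and less Clec4b1 and Clec4a2, so that 6 of 7 passed. With curdlan, KO cells held more Clec4a1, Clec4d, Clec4a3, Clec4e and Clec4n and less Clec4b1, again 6 of 7. The share of all genes tested that passed was 44.4% without curdlan (21.1% higher, 23.3% lower) and 51.4% with it (24.7% higher, 26.8% lower). The member medians were 0.71 with curdlan and 0.61 without, on the log2 scale, beside 0.0093 and -0.0099 over all genes. Scaling by library size only took these all-gene medians to -0.236 and -0.191 and left 4 members higher and 1 lower with curdlan, and 3 higher and 2 lower without it.

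**Figure D3:**
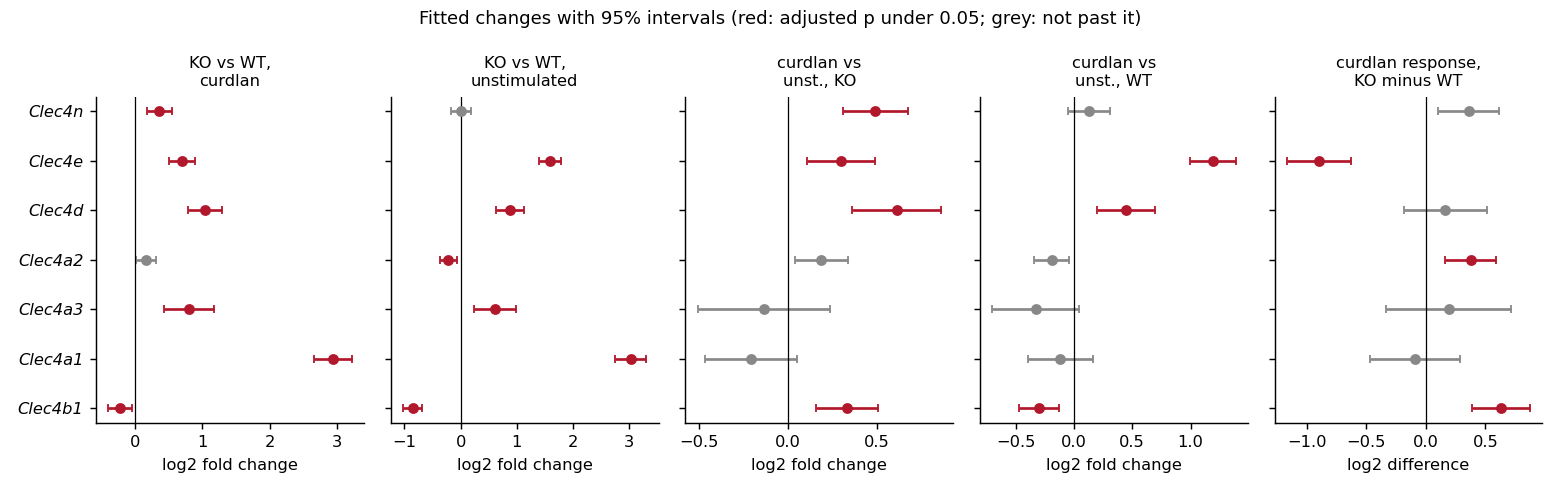
Log2 fold changes (x axes) of the 7 transcripts (rows) from the fit of all 12 libraries, with 95% intervals as bars, for KO over WT in each state, curdlan over unstimulated in each genotype, and the difference of the curdlan responses. Red marks an adjusted p under 0.05; the x axes differ in range. The Clec4e response is the only one whose difference lies below 0 with a red mark, at -0.89.

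Many markers of other cells moved with the genotype label, as did 51.4% of all genes tested with curdlan and 44.4% without it. Of 10 neutrophil markers, 9 were higher in KO in both states and none lower, with sums of 6099 to 9606 CPM in KO and 3941 to 4626 CPM in WT with curdlan, and of 6602 to 10379 CPM in KO and 4608 to 5862 CPM in WT without it. Of 10 macrophage and monocyte markers, 5 were higher and 1 lower with curdlan (16340.4 to 20119 CPM in KO, 13313 to 14497 CPM in WT), and 8 higher and 1 lower without it (15849 to 20111 CPM in KO, 13597 to 14365 CPM in WT). The 10 mast cell, basophil and eosinophil markers, 6 higher and 1 lower in each state, summed to 245 to 384 CPM in KO and 110 to 146 CPM in WT with curdlan, and to 243 to 430 CPM in KO and 125 to 156 CPM in WT without it. Within that list, Prg2, Epx and Siglecf averaged 15.4, 6.24 and 26.3 CPM in KO with curdlan, against 20.3, 8.12 and 40.3 CPM in WT. Without it, Siglecf was again lower on average (16.5 CPM in KO, 25.3 CPM in WT), while Prg2 and Epx were not. All 6 B cell markers were lower, at 1.33 to 1.75 CPM in KO and 34.7 to 43.6 CPM in WT over both states. Of 6 stromal and endothelial markers, 2 were higher and 1 lower with curdlan (16.0 to 22.4 CPM in sum in KO, 14.02 to 15.39 CPM in WT), and 3 higher and none lower without it (19.5 to 27.7 CPM in KO, 15.2 to 16.5 CPM in WT). T and NK cell markers summed to 1.78 CPM or less, and neither of the 2 that were tested passed. None of the markers listed was at 0 in all libraries. Several Clec4 genes are also expressed by neutrophils and macrophages; in bulk RNA, more cells of a type and more RNA per cell cannot be told apart, and the part of these markers in the genotype differences was not tested.

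Clec4e encodes Mincle, the receptor of the mycobacterial cord factor trehalose dimycolate. Curdlan raised it in both genotypes, and far more in WT. It measured 1923, 1864 and 1865 CPM in KO libraries 2, 4 and 5 with curdlan, against 1581, 1442 and 1576 CPM in unstimulated KO libraries 1, 2 and 5. In WT libraries 1, 2 and 4 it measured 1201, 1075 and 1192 CPM with curdlan, against 499, 456 and 563 CPM in the same numbers unstimulated. The 4 groups did not overlap, and every unstimulated KO library lay above every curdlan-treated WT library. The log2 fold change with curdlan was 0.30 in KO (SE 0.09, adjusted p = 0.0248) and 1.19 in WT (SE 0.09, adjusted p = 3.28e-06), a 1.23-fold and a 2.29-fold rise. The responses differed by -0.89 on the log2 scale (SE 0.12, 95% interval -1.17 to -0.62, adjusted p = 0.00477). KO cells held 1.63-fold more with curdlan (log2 0.71, SE 0.09, adjusted p = 4.23e-05) and 3.03-fold more without it (log2 1.60, SE 0.09, adjusted p = 8.61e-08). The KO rise lost the threshold without KO curdlan 5, KO unstimulated 1 or KO unstimulated 2, in a fit of the KO groups alone and when libraries were scaled by size only (0.10, adjusted p = 0.406). The WT rise, the difference of responses and both genotype differences passed under every alternative tried, the genotype difference with curdlan at 0.46 by library size only.

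Clec4d encodes MCL, which forms complexes with Mincle and aids its display at the cell surface. It rose with curdlan in both genotypes. KO libraries 2, 4 and 5 with curdlan held 245, 259 and 332 CPM, against 175, 164 and 209 CPM in unstimulated KO libraries 1, 2 and 5. WT libraries 1, 2 and 4 held 139, 129 and 138 CPM with curdlan, against 105, 97.5 and 96.3 CPM unstimulated. The order of the 4 groups was that of Clec4e, and none overlapped. The log2 fold change was 0.61 in KO (SE 0.11, adjusted p = 0.0021) and 0.45 in WT (SE 0.11, adjusted p = 0.0164). The difference, 0.16, did not pass (95% interval -0.19 to 0.51, adjusted p = 0.568), and this interval does not show that the responses were alike. Clec4d was 2.06-fold higher in KO with curdlan (log2 1.04, SE 0.12) and 1.84-fold higher without it (log2 0.88, SE 0.12), with an adjusted p of 1.66e-05 and 6.53e-05. The WT rise lost the threshold without WT curdlan 4, WT unstimulated 2 or WT unstimulated 4 (adjusted p up to 0.0597) and under scaling by library size (0.31, adjusted p = 0.0523).

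In KO number 5, the library with the most Clec4d in either state, the neutrophil markers also had their highest sums, 9606 CPM with curdlan and 10379 CPM without it, against 6099 to 6843 CPM and 6602 to 7488 CPM in the other KO libraries. The mast cell, basophil and eosinophil markers also had their highest sums in KO number 5, 384 and 430 CPM. Among the other KO libraries the order was opposite. With curdlan, KO 4 held more Clec4d than KO 2 (259 and 245 CPM) but a lower neutrophil sum (6099 and 6843 CPM). Unstimulated, KO 1 held more Clec4d than KO 2 (175 and 164 CPM) but a lower neutrophil sum (6602 and 7488 CPM). Without KO curdlan 5 the difference of the Clec4d responses stood at -0.02. That library's part in the KO level of Clec4d was not tested further.

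Clec4n encodes Dectin-2, which binds mannans of Candida and other fungi. Curdlan raised it in KO cells, while in WT cells the change did not pass. KO libraries 2, 4 and 5 with curdlan held 2167, 1919 and 2089 CPM, against 1511, 1561 and 1329 CPM in unstimulated KO libraries 1, 2 and 5. WT libraries 1, 2 and 4 held 1604, 1611 and 1586 CPM with curdlan, against 1416, 1554 and 1414 CPM unstimulated. All KO libraries with curdlan lay above all others, and unstimulated KO and WT libraries overlapped. The log2 fold change was 0.49 in KO (SE 0.08, adjusted p = 0.00118) and 0.13 in WT (SE 0.08, 95% interval -0.05 to 0.31, adjusted p = 0.301). By library size only the KO change was 0.29 and still passed (adjusted p = 0.0209). The difference of responses, 0.36, did not pass (SE 0.12, adjusted p = 0.089). It did pass with replicate number as a block (0.43, adjusted p = 0.00757) and in DESeq2 (adjusted p = 0.0213). DESeq2 passed 2251 of all genes tested for this difference, against 989 by edgeR's test with TMM scaling. KO cells held 1.29-fold more Clec4n with curdlan (log2 0.36, adjusted p = 0.00316), a call lost when libraries were scaled by size only (0.12, adjusted p = 0.254). Unstimulated, the log2 fold change between genotypes was 0.01 (95% interval -0.18 to 0.19, adjusted p = 0.969).

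Clec4b1, which encodes the activating receptor DCAR, was the member whose change with curdlan passed in opposite directions. KO libraries 2, 4 and 5 with curdlan held 21.1, 21.8 and 18.9 CPM, against 16.1, 17.9 and 15.1 CPM in unstimulated KO libraries 1, 2 and 5. WT libraries 1, 2 and 4 held 24, 24.4 and 23.7 CPM with curdlan, against 28.7, 31.1 and 29 CPM unstimulated. The 4 groups did not overlap, with unstimulated KO lowest and unstimulated WT highest. The log2 fold change was 0.33 in KO (SE 0.08, adjusted p = 0.00915) and -0.30 in WT (SE 0.08, adjusted p = 0.0178). Their difference was 0.63 (SE 0.11, 95% interval 0.39 to 0.88, adjusted p = 0.0101) and passed under every alternative tried. Clec4b1 was lower in KO, by a log2 fold change of -0.22 with curdlan (SE 0.08, adjusted p = 0.034) and -0.85 without it (SE 0.08, adjusted p = 4.41e-06). The rise in KO lost the threshold when libraries were scaled by size only (0.13, adjusted p = 0.228) and when the KO groups were fitted alone, and the fall in WT without WT curdlan 4 or WT unstimulated 2 (adjusted p up to 0.0824). The genotype difference with curdlan lost it without KO curdlan 5 (-0.16, adjusted p = 0.125) or any WT curdlan library. It also lost it in a fit of the curdlan groups alone (adjusted p = 0.0608) and with the replicate block (-0.18, adjusted p = 0.0542), and by library size only it was -0.47 (adjusted p = 0.000349).

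Clec4a2 encodes DCIR, the ITIM-bearing inhibitory receptor among the members. KO libraries 2, 4 and 5 with curdlan held 135, 143 and 127 CPM, against 113, 126 and 117 CPM in unstimulated KO libraries 1, 2 and 5. WT libraries 1, 2 and 4 held 126, 122 and 114 CPM with curdlan, against 140.4, 139.5 and 132 CPM unstimulated. The states did not overlap within either genotype, with the curdlan libraries above the unstimulated ones in KO and below them in WT, but neither change passed. Its log2 fold change was 0.19 in KO (adjusted p = 0.0602) and -0.19 in WT (adjusted p = 0.0749; with replicate number as a block -0.19, adjusted p = 0.0112). Both values depended on the scaling and the fit: by library size only the KO value turned to -0.01 (adjusted p = 0.932) and the WT fall passed (-0.32, adjusted p = 0.00594). Upper-quartile scaling also passed the WT fall (-0.23, adjusted p = 0.0368), and the KO value passed in DESeq2 (0.19, adjusted p = 0.0368) and without KO curdlan 5 or KO unstimulated 2 (adjusted p of 0.0493 and 0.0478). The difference, 0.38, passed (SE 0.1, 95% interval 0.16 to 0.59, adjusted p = 0.0462), but under 13 of 19 alternatives it did not (adjusted p up to 0.151), among them the omission of any WT library, KO curdlan 4 or KO unstimulated 1 or 5. Unstimulated KO cells held less Clec4a2 than WT (log2 -0.22, adjusted p = 0.0225), a call lost without KO unstimulated 1 or 5 or WT unstimulated 1 or 2 (adjusted p up to 0.0957) and at -0.40 by library size only. With curdlan the genotype value was 0.16 (adjusted p = 0.0708) and turned to -0.09 when libraries were scaled by size only.

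Clec4a1, a DCIR-family gene at the edge of the cluster, had the largest difference between genotypes among the members. Its changes with curdlan did not pass in the TMM-scaled fit of all 12 libraries without a replicate block. It measured 60.6, 49.1 and 47.3 CPM in KO libraries 2, 4 and 5 with curdlan, and 7.4, 6.22 and 6.92 CPM in WT libraries 1, 2 and 4 with curdlan. Unstimulated KO libraries 1, 2 and 5 held 53.7, 70.0 and 57.9 CPM, and unstimulated WT libraries 1, 2 and 4 held 7.29, 6.85 and 8.14 CPM. Every KO library lay far above every WT library. The fold was 7.65 with curdlan (log2 2.93, SE 0.13, adjusted p = 1.8e-08) and 8.15 without it (log2 3.03, SE 0.13, adjusted p = 1.08e-08), placing Clec4a1 at ranks 99 and 111 from the top of 18981 genes. Its rank by level per kb was 1984 with curdlan and 1609 without it in KO, against 7260 and 7053 in WT. With curdlan the log2 fold change was -0.21 in KO (adjusted p = 0.211; with replicate number as a block -0.25, adjusted p = 0.0214) and -0.12 in WT (95% interval -0.39 to 0.16, adjusted p = 0.569). The KO fall also passed by library size only (-0.41, adjusted p = 0.0181) and without KO curdlan 2 (-0.33, adjusted p = 0.0484), and stood at -0.09 without KO unstimulated 2 (adjusted p = 0.604).

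Clec4a3, another DCIR-family gene, varied most of the 7 between KO libraries relative to its level, with 49.0 ± 11.6 CPM in KO with curdlan and 54.0 ± 11.9 CPM in unstimulated KO; in CPM, the SDs of Clec4n, Clec4e and Clec4d were larger. KO libraries 2, 4 and 5 with curdlan held 59.8, 50.4 and 36.7 CPM, and WT libraries 1, 2 and 4 held 28.7, 29.0 and 26.6 CPM. Unstimulated KO libraries 1, 2 and 5 held 56.7, 64.3 and 40.9 CPM, and unstimulated WT libraries 1, 2 and 4 held 33.3, 35.3 and 37.3 CPM. KO number 5 was lowest in both states, yet all KO libraries lay above the WT libraries of the same state. Clec4a3 was 1.75-fold higher in KO with curdlan (log2 0.80, SE 0.17, adjusted p = 0.00197) and 1.53-fold higher without it (log2 0.61, SE 0.17, adjusted p = 0.0112), the second call being lost without KO unstimulated 2 (0.47, adjusted p = 0.053) and when libraries were scaled by size only (0.43, adjusted p = 0.0519). The change with curdlan was -0.14 in KO (adjusted p = 0.59) and -0.33 in WT (adjusted p = 0.202). With replicate number as a block the WT value was -0.33 (adjusted p = 0.00146). The WT fall also passed in a fit of the WT groups alone and with the block numbered as in the comparison tables. The KO value turned positive, at most 0.024, without KO curdlan 5 or KO unstimulated 2.

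The remaining genes of the interval were low. Clec4a4, which encodes a second ITIM-bearing DCIR, had means of 10.8 and 11.1 CPM in KO with curdlan and without it, and of 11.3 and 13.2 CPM in those states of WT, and passed in no comparison. Of its 50-base words, 15.7% also occur in Clec4a2. Clec4b2 was at 2.87 ± 0.59 CPM in KO and 1.59 ± 0.14 CPM in WT with curdlan, and at 3.05 ± 0.65 CPM in KO and 1.42 ± 0.2 CPM in WT without it. It was higher in KO, by 0.85 with curdlan (adjusted p = 0.00253) and by 1.11 without it (adjusted p = 0.000401) on the log2 scale, and did not pass with curdlan in either genotype.

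The 5 protein-coding genes before the cluster were tested, and none of the 5 after it, which are vomeronasal receptor genes. Of all genes tested, 51.4% passed between genotypes with curdlan and 44.4% without it. Before the cluster, 2 were higher and 1 lower in KO with curdlan, and 2 were higher and none lower without it, with log2 fold changes between -0.21 and 2.27 and between -0.10 and 2.23. The highest of these, named after its values were seen, was C3ar1, the receptor of the complement fragment C3a, which lies 2 genes before Clec4a1. It was higher by 2.27 with curdlan (adjusted p = 1.12e-07) and by 2.23 without it (adjusted p = 9.37e-08). Necap1, between C3ar1 and Clec4a1, stood at 0.22 and -0.03, so that the genotype difference did not run evenly along the chromosome.

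**Figure D4:**
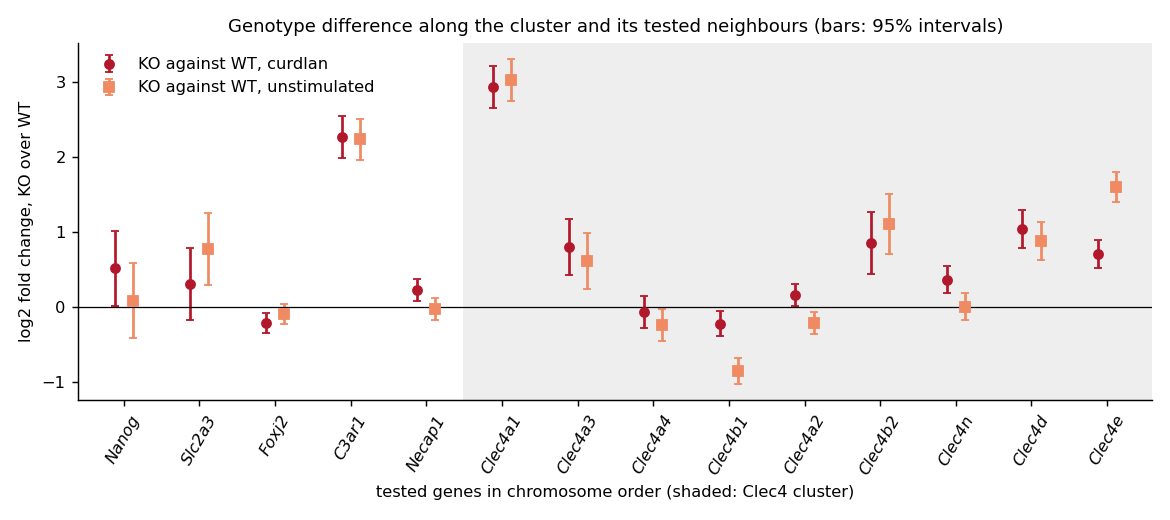
Log2 fold change of KO over WT (y axis) for the tested genes of the cluster (shaded) and before it, in chromosome order and not to scale (x axis), with curdlan (circles) and unstimulated (squares); bars are 95% intervals. C3ar1 and Clec4a1 stand at 2.23 or higher in both states, with Necap1 near 0 between them.

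Genes of the Syk pathway that these lectins share were counted from a list of 16, of which 15 were tested. With curdlan 5 were higher and 3 lower in KO, and 5 higher and 2 lower in WT. The shares of all genes tested that passed were 28.6% in KO and 19.8% in WT. The list's median log2 fold change was -0.03 in KO and 0.11 in WT. The rises included the adapter genes Sh3bp2 (0.79 in KO, 0.80 in WT) and Bcl10 (0.66 in KO, 0.45 in WT), and the paracaspase gene Malt1 (0.53 in KO, 1.07 in WT). Pik3cd fell by 0.54 in KO and by 0.32 in WT on the log2 scale. The responses of Syk and Malt1 were lower in KO, by log2 differences of -0.57 (adjusted p = 0.0105) and -0.54 (adjusted p = 0.0393). Syk stood at -0.03 in KO, which did not pass, and rose by 0.54 in WT. Card9, the adapter downstream of Syk, was at -0.11 in KO, which did not pass, and fell by 0.34 in WT. Fcer1g, the gamma chain itself, rose by 0.34 in KO (adjusted p = 0.0138) and was at -0.05 in WT (adjusted p = 0.742), a difference of 0.39 that did not pass (adjusted p = 0.0849).

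Between genotypes, 8 of the 15 were higher and 2 lower in KO with curdlan, and 10 higher and 1 lower without it, beside the shares given for all genes; the medians were 0.44 and 0.48. The Vav genes are among them. Fcer1g was higher in KO by 0.84 with curdlan and by 0.44 without it, and the kinase gene Lyn by 0.97 and 0.91, while Blnk was lower, at -0.80 and -0.41. Of the 3 phosphatase genes that ITIM receptors use, Ptpn6, which encodes SHP-1, was higher in KO by 0.23 with curdlan and 0.25 without it, and rose with curdlan by 0.40 in KO and 0.41 in WT. Inpp5d was higher in KO by 0.39 without curdlan and at 0.13 with it, which did not pass, and fell by 0.36 in KO with curdlan. Ptpn11 rose by 0.26 in WT and stood at 0.05 in KO, which did not pass.

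Genes of 6 transcription factors linked to Mincle induction were also higher in KO, 5 of 6 with curdlan and 6 of 6 without it (median log2 fold change 0.55 and 0.79). Over all genes tested, 24.7% were higher with curdlan and 21.1% without it. C/EBP factors are known activators of the Mincle gene in macrophages. Cebpd was higher by 1.29 with curdlan and 1.41 without it, and Cebpb by 0.95 and 0.59. Spi1, which encodes PU.1, was higher by 0.43 and 0.66. With curdlan, Nfkb1 rose by 0.57 in KO and 0.95 in WT and Rela by 0.42 in KO and 0.56 in WT. Cebpb rose by 0.58 in KO and stood at 0.21 in WT, which did not pass. None of the 6 differed in response past the threshold, beside 5.21% of all genes tested. The part of these factors in the Clec4e levels was not tested.

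Among 22 C-type lectin receptor genes outside the cluster, 20 were tested. In KO, 12 were higher and 6 lower with curdlan, and 10 higher and 7 lower without it (median log2 fold change 0.75 and 0.58). Beside them, 51.4% of all genes tested passed between genotypes with curdlan and 44.4% without it. The Dectin-1 gene Clec7a, whose product binds curdlan, rose by 0.66 in KO (adjusted p = 0.00124) and stood at 0.04 in WT (adjusted p = 0.845), and the difference of 0.63 passed (adjusted p = 0.0457). Clec7a averaged 927 CPM in KO with curdlan, 585 CPM in unstimulated KO, 762 CPM in WT with curdlan and 742 CPM in unstimulated WT. Ly75, which encodes the receptor DEC-205, differed in response the other way, by -0.92 (adjusted p = 0.0197), having fallen by 0.43 in KO and risen by 0.49 in WT. With curdlan 4 of the 20 were higher and 3 lower in KO, and 4 higher and none lower in WT. These counts lay near the shares of all genes tested, 28.6% in KO and 19.8% in WT. Olr1 stood at 1.55 in KO and 1.41 in WT.

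For each member, the 3 genes with the most similar log2 CPM over the 12 libraries were taken from 11000 tested genes whose log2 CPM averaged at least 2. The libraries share 4 groups and lanes, and the correlations describe likeness only. The genes were chosen by these correlations, so their differences between groups resemble those of the member through that choice. Nearest to Clec4e were Clp1, Ehd1 and Optn (Pearson r of 0.993, 0.992 and 0.991). These had log2 changes with curdlan of 0.17, 0.28 and 0.47 in KO, against 0.54, 1.08 and 1.28 in WT. Clec4d was followed most closely by Rap1b, Stim2 and Bcl2a1b (0.992, 0.991 and 0.990), and Clec4n by Cdk18, Tnfrsf12a and Rtn4 (0.978, 0.959 and 0.956). Close to Clec4a1 were Slc9a9 and Htra3 (both 0.996), which were higher in KO by 3.77 and 3.97 with curdlan. Clec4a3 was nearest to the lectin gene Mgl2 (0.985), then Gfra2 and Ctsf (0.983 and 0.981). Clec4b1 was nearest to S100a10, Ucp2 and Itgax (0.975, 0.965 and 0.961), of which Itgax, the CD11c gene, was lower in KO by log2 fold changes of -0.50 with curdlan and -0.92 without it. Clec4a2 had the least similar neighbours, Noc4l, Gm6065 and Dhrs1 (0.957, 0.930 and 0.919).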

How the data were processed

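RNA from 12 libraries of BMDCs (4 groups of 3) was measured by RNA-seq. The authors deposited raw counts per gene and library, and 2 comparison tables that hold log2 fold changes with standard errors and p-values from DESeq2, per the file headers. Per the submitters' processing notes, the tools included FastQC 0.11.1, TopHat2 (written as 2.4.2a), featureCounts 1.4.6, SAMtools 1.2 and DESeq2 1.8.2. Genome build, annotation, strand setting and placement of multiply matching reads were not given in the sources used here. In the comparison tables, 24 columns of values per library were not used.

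From the deposited counts, genes passing filterByExpr by group (18981) were scaled by TMM and fitted with edgeR 4.0.16 under R 4.3.3 (two-sided quasi-likelihood F-test) in 1 fit of 12 libraries with 4 group means; p-values were adjusted by Benjamini-Hochberg over all genes tested, with a threshold of 0.05. Intervals are 95% intervals of the fit, with SE its standard error. Genes tested held at least 99.97% of counts in each library; no counts without a gene were present. CPM per kb divides by the union of exons of protein-coding transcripts (GENCODE M21), matched by Ensembl identifier for 32919 of 37991 genes. Libraries of each group differed beyond counting noise (chi-square per degree of freedom of at least 9.92), and all were kept apart. The fit was also run on simulated counts with few changed genes in balanced directions, which cannot address how the calls depend on scaling.

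Groups follow the labels and replicate numbers the library names. Same-numbered libraries deviated together between states, with correlations of 0.29 and 0.56 in KO and of 0.39, 0.24 and 0.13 in WT. Unlike-numbered libraries ran from -0.47 to 0.25 in KO and from -0.29 to 0.08 in WT. The labels do not say that a number is an animal, so pairing of the states within a genotype was assumed for the block. Between genotypes, same-numbered libraries ran from -0.15 to 0.08. The comparison tables give the WT curdlan columns the numbers 4, 1 and 2 where the count table has 1, 2 and 4, under which the WT correlations are -0.16, -0.25 and 0.08.

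Named genes are the 7 members, the other Clec4 genes of the interval, up to 4 genes per list and comparison by size among those past the threshold, 3 nearest patterns per member, and the Vav genes. A few more list genes are named for their role, and 1 nearest pattern is not reported here. The members, lists and tests were chosen with earlier results of these data known. Alternatives were DESeq2 1.42.0, its size factors in edgeR, upper-quartile scaling, library size alone, no filter, a fit of the compared groups alone, the replicate block, omission of each library and, for levels per kb, the exons of all transcripts.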

Additional observations from a re-analysis of the deposited data

Results flagged for a closer look

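The curdlan response differed between genotypes, by the test of the difference itself (KO minus WT, log2, edgeR with Benjamini-Hochberg adjustment over all genes), for 3 members. For Clec4e the difference was -0.89 (adjusted p = 0.00477), with a rise of 0.30 in KO and of 1.19 in WT. For Clec4b1 it was 0.63 (adjusted p = 0.0101), with 0.33 in KO and -0.30 in WT. For Clec4a2 it was 0.38 (adjusted p = 0.0462), with 0.19 in KO and -0.19 in WT, neither of which passed alone. This call was lost under 13 of 19 alternatives (adjusted p up to 0.151), among them the omission of any WT library, while with the replicate block the difference was 0.30 (adjusted p = 0.029) and the WT change passed (-0.19, adjusted p = 0.0112).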

How the results depend on the processing

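Of 504 values of single members under alternatives, 434 kept their direction and side of the threshold, 40 lost the threshold, 16 gained it and 14 changed sign. The count of members past the threshold moved to 2 for curdlan in KO in a fit of the KO groups alone, and to 5 for curdlan in WT with the replicate block; omitting a library gave 1 to 3 in WT. The added block with the WT curdlan numbers of the comparison tables was chosen after seeing the data and gave 4 in WT. Sign changes were all of values that did not pass. Clec4n between unstimulated genotypes (0.01) became -0.027 with upper-quartile scaling, -0.17 by library size alone and -0.0033 without a filter, and ran from -0.042 to 0.070 over omitted libraries. By library size alone, Clec4a2 became -0.011 for curdlan in KO and -0.086 for KO against WT with curdlan, and Clec4n -0.0021 for curdlan in WT. Over omitted libraries, Clec4a3 for curdlan in KO ran from -0.309 to 0.024, and the difference of responses from -0.015 to 0.267 for Clec4d and from -0.218 to 0.024 for Clec4a1. Library size alone gave 1326 genes higher and 6073 lower for curdlan in KO (2658 and 2767 with TMM), 1534 and 4589 in WT (2164 and 1595), 207 and 1114 for the difference (305 and 684), 2459 and 7921 for KO against WT with curdlan (4682 and 5080), and 2551 and 7104 without it (4007 and 4421), with an all-gene median down to -0.236. Upper-quartile scaling gave 1963 higher and 2275 lower for curdlan in WT and 405 and 560 for the difference. DESeq2 gave 949 higher and 1302 lower for the difference. Across genotypes the block, whose numbers do not pair there, took Clec4a2 without curdlan to an adjusted p = 0.0519 and Clec4b1 with curdlan to an adjusted p = 0.0542; within a genotype it changed no call beyond those given. The causes of these changes were not tested. Member counts per library ran from 300, for Clec4a1, upward, so depth limits Clec4a1 in WT most.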

Other observations

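The authors' deposited table named for an interaction held values close to the own fit of KO against WT without curdlan and not to the own difference of the responses. Across 18981 genes the median absolute difference in log2 fold change was 0.011 for that comparison and 0.473 for the difference of responses. In the authors' deposited table, Clec4e stood at 1.61 and Clec4b1 at -0.84, where the own fit gave 1.60 and -0.85 for KO against WT without curdlan and -0.89 and 0.63 for the difference of responses. Taken as an interaction of KO minus WT, 1.61 would be a larger Clec4e response in KO, where the counts gave a smaller one. Taken as WT minus KO, its sign would be that of the counts. The name, which puts WT before KO, does not give the sign. With values this close to KO against WT without curdlan, 1.61 is not read here as a difference of responses under either sign. Across genes, the Pearson r was 0.997 with KO against WT without curdlan and -0.19 with the difference of responses. The authors' deposited table of KO against WT with curdlan was close to the own fit (median absolute difference 0.0121), with Clec4e at 0.70 and Clec4a1 at 2.87.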
